A study of Mus musculus with 40 samples.

Results

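Transcripts of the 3 fibrinogen chains, Fga, Fgb and Fgg, were examined in the kidney cortex of diabetic and non-diabetic mice. They are 3 of the 55401 genes in the count table and were chosen by symbol. Fibrinogen was singled out because a few libraries, among them Akita-MitoGamide replicate 5, held far more of it than the rest. The levels and fold changes of the chains are therefore given as a description, without tests. Fibrinogen is the soluble plasma protein that thrombin turns into the fibrin mesh of a clot. It is made of 3 pairs of chains, Aα, Bβ and γ, which are encoded by the neighbouring genes Fga, Fgb and Fgg and assembled before secretion. Hepatocytes make nearly all plasma fibrinogen, and interleukin-6 acting through Stat3 raises its transcription in the acute phase response. Injured renal tubular epithelium is also known to express fibrinogen chains.

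Renal cortex was taken from male C57BL/6J mice, 5 in each of 8 groups and 1 library per mouse. Akita mice were heterozygous for the Ins2-Akita allele, a mutated insulin gene that leaves beta cells unable to secrete enough insulin, and the WT mice were their littermates. Mice of both genotypes received the ethanol vehicle (10% ethanol in water) or MitoGamide, a mitochondria-targeted scavenger of the reactive dicarbonyl methylglyoxal, at 10 mg/kg by daily gavage from 6 to 22 weeks of age (16 weeks). The remaining groups of both genotypes are labelled water or MitoQ, a mitochondria-targeted antioxidant, and their dose and route are not given in the sources used here. Their ages are recorded as 6 weeks at the start and 22 weeks at the end, as in the other groups. The 8 groups are named WT-ethanol, Akita-ethanol, WT-MitoGamide, Akita-MitoGamide, WT-water, Akita-water, WT-MitoQ and Akita-MitoQ.

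Libraries held between 9106654 and 24321424 estimated counts. Values are CPM, the usual scaling of counts to a common library size, after TMM normalization, which corrects for differences in composition between libraries. All 3 chains had at least 1 count in 40 of 40 libraries. WT-MitoQ replicate 3 stood apart with a TMM factor of 0.505 and a median Spearman correlation of 0.905 to the other libraries. Akita-MitoGamide replicate 5 had a factor of 0.853 and a correlation of 0.947, and it held the highest value of the 40 libraries for 15.7% of the 17769 genes that averaged 10 counts or more. Proximal tubule markers, the defining markers of cortex, all had counts in every library and summed to between 9725 and 19283 CPM. In bulk tissue, more cells with a transcript and more transcript per cell cannot be told apart.

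The genes lie within 42.1 kilobases of mouse chromosome 3 (GRCm38). Fgg (ENSMUSG00000033860.13) spans chr3:83007724-83015049 and Fga (ENSMUSG00000028001.16) chr3:83026076-83033627, both on the plus strand, while Fgb (ENSMUSG00000033831.5) spans chr3:83040141-83049863 on the minus strand. The 250 bases before each RefSeq transcription start (GRCm38.p6) are shown 5′ to 3′ on the strand of the gene, because the chains moved together and these windows are where the factors of the acute phase response are known to act. Capitals mark matches to the core of the IL-6 response element (CTGGGA) and to a C/EBP motif (TTNNGNAA), searched on both strands. These motifs were chosen from general knowledge after the sequences were at hand.

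Fgg, chr3:83007474-83007723, plus strand: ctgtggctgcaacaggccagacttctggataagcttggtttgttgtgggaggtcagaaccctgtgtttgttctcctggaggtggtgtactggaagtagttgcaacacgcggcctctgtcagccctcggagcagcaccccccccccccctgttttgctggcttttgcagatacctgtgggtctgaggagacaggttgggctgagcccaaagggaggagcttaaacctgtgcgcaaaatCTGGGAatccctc
Fga, chr3:83025903-83026152, plus strand: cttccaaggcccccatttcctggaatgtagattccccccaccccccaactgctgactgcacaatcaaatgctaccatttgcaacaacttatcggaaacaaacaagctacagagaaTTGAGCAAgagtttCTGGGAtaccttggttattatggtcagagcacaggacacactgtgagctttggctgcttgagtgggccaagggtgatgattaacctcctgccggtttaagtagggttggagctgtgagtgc
Fgb, chr3:83049864-83050113, minus strand: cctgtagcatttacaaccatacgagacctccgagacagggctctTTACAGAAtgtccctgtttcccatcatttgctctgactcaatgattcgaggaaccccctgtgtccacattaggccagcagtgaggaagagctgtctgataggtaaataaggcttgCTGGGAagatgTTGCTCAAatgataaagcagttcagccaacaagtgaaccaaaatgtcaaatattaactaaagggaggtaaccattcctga

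CTGGGA was present in 3 of 3 windows, beginning 121 bases before the start in Fga, 91 in Fgb and 13 in Fgg. It also occurred in 27.0% of 32851 mouse promoter windows of this length. The C/EBP motif was present in Fga and Fgb, as in 36.8% of all windows. Fga and Fgb thus held both motifs, as did 9.09% of all windows. No 2 matches overlapped. The absence of a match in the Fgg window says only that these letters do not occur there, and a match shows no binding. GENCODE places the start of Fga 77 bases before the RefSeq start and those of Fgb and Fgg at the same base.

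In most mice the transcripts of the chains were found at a low level and in unequal amounts. Over all 40 libraries the median was 5.56 CPM per kilobase of the longest transcript for Fga, which encodes the Aα chain, 3.48 for Fgg and 0.271 for Fgb. Per kilobase of the longest transcript, Fga was above Fgg in 39 of 40 libraries and Fgg above Fgb in 40 of 40. On this scale Fgb made up a median of 3.20% of the summed 3 chains, with a range from 0.937% to 19.9%. These figures depend on the length used, since the longest transcript has 3810 bases for Fgb but 1443 bases are coding. Per kilobase of coding length the median of Fgb was 0.716 CPM and its median share 6.95%, with a range from 2.09% to 36.0%. Fga was then above Fgg in 35 of 40 libraries, and Fgg above Fgb in 39 of 40, the exception being WT-water replicate 1. Since Fgb was read from few counts in many libraries, its low values are imprecise. The lowest count was 4, in Akita-water replicate 5, where the 0.528 CPM had an exact 95% binomial interval of 0.144 to 1.35. Intervals cover counting error only.

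**Figure D1:**
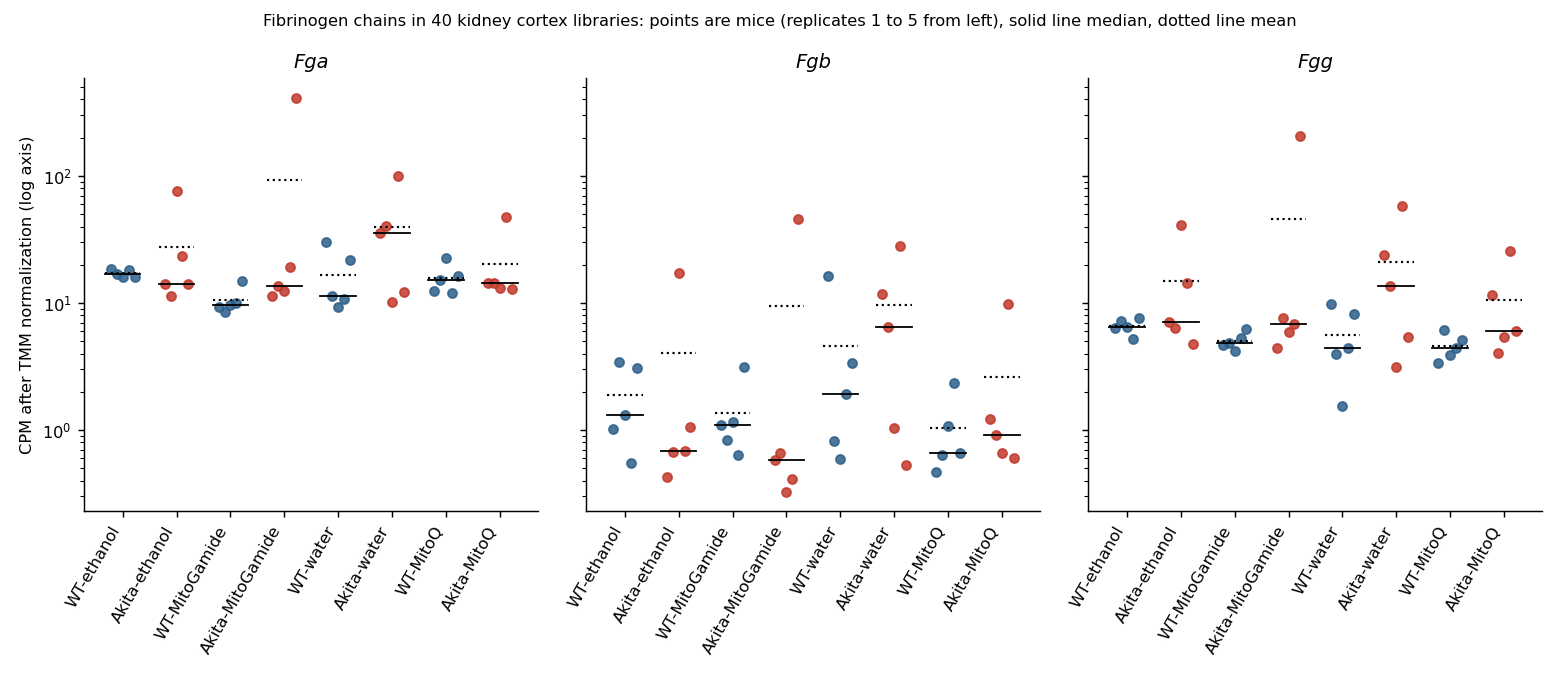
CPM of Fga, Fgb and Fgg (log axis) in each of the 40 libraries by group, with WT in blue, Akita in red, the group median as a solid line and the group mean as a dotted line. Single Akita libraries lie far above the rest of their group, so that means and medians part, most of all in Akita-MitoGamide, where replicate 5 reached 410 CPM of Fga against a group median of 13.7.

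The 5 WT-ethanol libraries held 18.4, 17.1, 16.0, 18.3 and 16.0 CPM of Fga (replicates 1 to 5), the narrowest spread of any group (SD 1.17). Akita-ethanol held 14.1, 11.3, 75.7, 23.2 and 14.0 CPM. Akita-ethanol replicates 3 and 4 lay above every WT-ethanol library and the other 3 below, so that the diabetic group surrounded its control. WT-MitoGamide held 9.39, 8.50, 9.73, 9.99 and 15.0 CPM of Fga, and Akita-MitoGamide 11.3, 13.7, 12.5, 19.3 and 410. Replicate 5 thus carried 87.8% of the summed Fga CPM of its group and stood 29.9-fold above the group median.

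WT-water held 30.1, 11.3, 9.39, 10.8 and 21.8 CPM of Fga and Akita-water 35.7, 40.3, 10.1, 101 and 12.1. In Akita-water, 3 of 5 libraries lay above every WT-water library, and the other 2 lay within the WT range. WT-MitoQ held 12.5, 15.1, 22.7, 12.0 and 16.4 CPM and Akita-MitoQ 14.5, 14.3, 13.2, 47.4 and 12.9. Replicate 4 of Akita-MitoQ was above every WT-MitoQ library and its 4 companions were not.

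Fgg, which encodes the γ chain, followed Fga closely. Akita-ethanol held 7.11, 6.34, 41.5, 14.3 and 4.78 CPM of Fgg against 6.34, 7.16, 6.44, 5.18 and 7.63 in WT-ethanol. Akita-MitoGamide held 4.40, 7.59, 5.90, 6.86 and 206 CPM against 4.69, 4.81, 4.18, 5.28 and 6.29 in WT-MitoGamide. The same library of each Akita group, replicate 3 and replicate 5 respectively, was the highest. Akita-water held 23.8, 13.7, 3.13, 58.1 and 5.41 CPM against 9.82, 3.95, 1.54, 4.45 and 8.13 in WT-water, and Akita-MitoQ 11.5, 4.01, 5.40, 25.7 and 6.01 against 3.36, 6.09, 3.89, 4.46 and 5.15 in WT-MitoQ. Fgg was the chain with the most Akita libraries above the highest WT library, 8 of 20.

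Fgb, which encodes the Bβ chain, was near 1 CPM in most libraries and rose furthest in relative terms where it was high. Akita-ethanol held 0.423, 0.670, 17.2, 0.683 and 1.05 CPM of Fgb, and WT-ethanol 1.02, 3.42, 1.32, 0.548 and 3.09. Akita-MitoGamide held 0.577, 0.656, 0.328, 0.412 and 45.5 CPM, and WT-MitoGamide 1.09, 0.832, 1.16, 0.633 and 3.14. Replicate 5 was 78.9-fold above the median of Akita-MitoGamide, while 3 of its 4 companions lay below every WT-MitoGamide library. Akita-water held 11.7, 6.50, 1.04, 28.3 and 0.528 CPM and WT-water 16.3, 0.815, 0.594, 1.91 and 3.39. Akita-MitoQ held 1.23, 0.914, 0.662, 9.78 and 0.601 CPM and WT-MitoQ 0.469, 0.638, 1.08, 2.35 and 0.656. WT-water replicate 1 was the only WT library above 4 CPM of Fgb.

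The order of the libraries was shared between the chains at its upper end. Akita-MitoGamide replicate 5, Akita-water replicate 4 and Akita-ethanol replicate 3 ranked 1, 2 and 3 of 40 for each chain. Akita-MitoQ replicate 4 ranked 4 for Fga and Fgg and 6 for Fgb. In Akita-MitoGamide replicate 5 the values rested on 4958 counts of Fga, 550 of Fgb and 2486 of Fgg, with exact 95% binomial intervals of 398.8 to 421.8, 41.8 to 49.5 and 197.7 to 213.9 CPM. These intervals cover counting error only and do not describe the spread between mice. Each of the 4 Akita treatments contained 1 such library, and Akita-water replicates 1 and 2 were also high.

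Spearman correlations between the chains over the 40 libraries were 0.76 for Fga with Fgg, 0.51 for Fga with Fgb and 0.50 for Fgb with Fgg. After each group's mean was subtracted they were 0.88, 0.83 and 0.85. The 20 Akita libraries alone gave 0.86, 0.70 and 0.61. The points share library preparation and depth, so these values are descriptive.

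**Figure D2:**
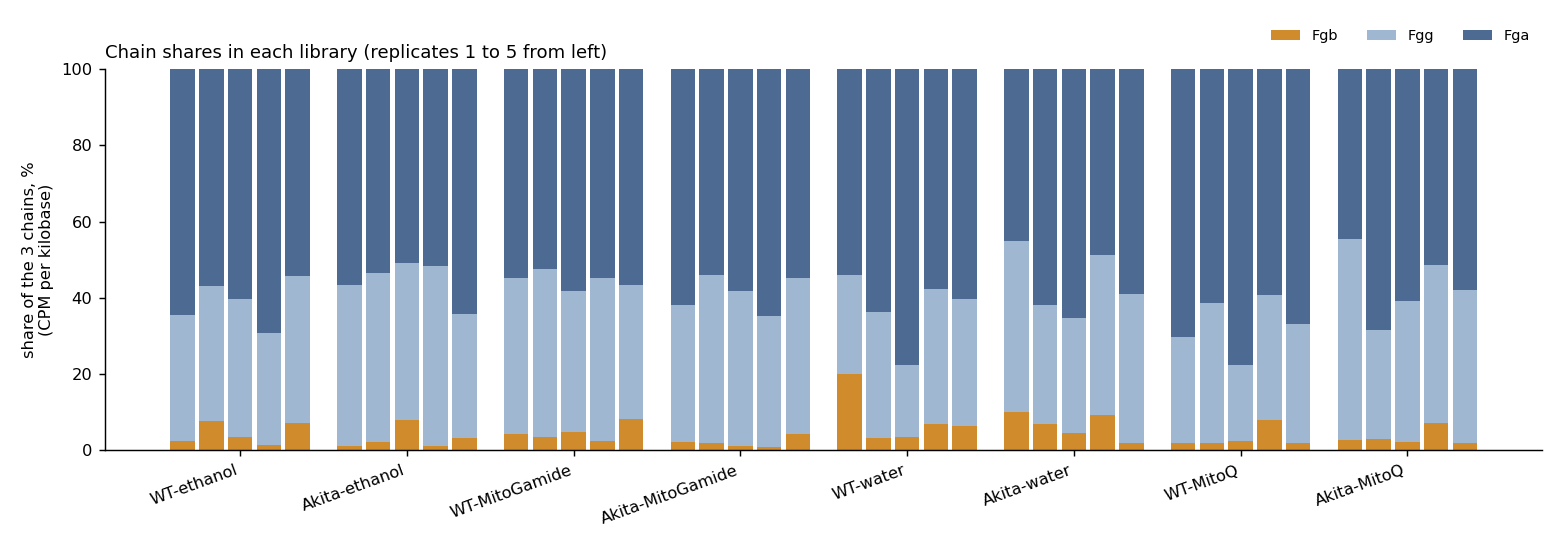
Shares of Fga, Fgg and Fgb in the summed CPM per kilobase (longest transcript) of the 3 chains, 1 bar per library with replicates 1 to 5 from left within each group. On this scale Fgb is the smallest share in every library and reaches its highest value, 19.9%, in WT-water replicate 1, where it exceeds the share of Fgg if coding length is used.

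The proportions of the chains differed between libraries. The ratio of Fga to Fgb per kilobase of the longest transcript ranged from 2.71 to 69.2 over the 40 libraries, and from 1.12 to 28.7 per kilobase of coding length, which scales all libraries alike. It was 6.47 in Akita-ethanol replicate 3, 5.24 in Akita-water replicate 4, 7.14 in Akita-MitoQ replicate 4 and 13.3 in Akita-MitoGamide replicate 5. All 4 were below the median of the libraries, with a larger share of Fgb. In the remaining 4 libraries of Akita-MitoGamide the ratio was 28.7, 30.8, 56.2 and 69.2. These ratios are imprecise, since they rested on few counts of Fgb (6 at the lowest). Low ratios were not limited to high fibrinogen, since WT-ethanol replicates 2 and 5 had 7.34 and 7.62. The lowest ratio, 2.71, belonged to WT-water replicate 1, which also had the lowest ratio of Fgg to Fgb (1.31, against 4.46 to 9.89 in the 4 Akita libraries just named and Akita-water replicate 1).

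Ordered by median, Akita-water was highest for each chain (35.7 CPM of Fga, 6.50 of Fgb and 13.7 of Fgg). WT-ethanol followed for Fga (17.1), WT-water for Fgb (1.91) and Akita-ethanol for Fgg (7.11). The lowest medians were those of WT-MitoGamide for Fga (9.73), Akita-MitoGamide for Fgb (0.577) and WT-water for Fgg (4.45). Every pair of neighbours in these 3 orders had overlapping ranges.

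The question behind the comparison of genotypes was what diabetes changes in the renal transcriptome. Over the 4 treatments, the fit gave log2 fold changes in Akita against WT of 1.34 (SE 0.40) for Fga, 1.53 (SE 0.59) for Fgb and 1.86 (SE 0.42) for Fgg. These values described means and not the typical mouse. The mean of Fga was 15.0 ± 5.47 CPM over the WT libraries and 45.3 ± 89.2 over the Akita libraries (SD, n = 20 each), but the medians were 15.0 and 14.2. For Fgb in Akita and WT the means were 6.44 ± 11.7 and 2.23 ± 3.48 (SD, n = 20 each) and the medians 0.799 and 1.08. Only Fgg had a higher median in Akita, 6.98 against 5.16, beside means of 23.1 ± 45.3 and 5.44 ± 1.86 (SD, n = 20 each).

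Of the 20 Akita libraries, 6 lay above the highest WT library for Fga, 3 for Fgb and 8 for Fgg. Conversely, 0 lay below the lowest WT library for Fga and Fgg and 3 did for Fgb. Akita-MitoGamide replicate 5 alone held 45.2% of the summed Fga CPM of the 20 Akita libraries, 35.3% of Fgb and 44.6% of Fgg. Without it the log2 fold changes were 0.72, 0.73 and 1.19. Without both WT-water replicate 1 and WT-MitoQ replicate 3 they were 1.50, 1.94 and 1.95.

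Within single treatments, the fold changes in Akita against WT were all above 0. On ethanol they were 0.69 (SE 0.43) for Fga, 0.99 (SE 0.92) for Fgb and 1.15 (SE 0.49) for Fgg. Without Akita-ethanol replicate 3 these became -0.10, -1.42 and 0.34. The groups overlapped for all 3 chains, while they did not overlap for 13.0% of the genes tested in this comparison. On water the fold changes were 1.26 (SE 0.58), 1.11 (SE 1.01) and 1.93 (SE 0.72), again with overlap for each chain (2.53% of genes did not overlap). Here the medians were also higher in Akita, by 1.66, 1.77 and 1.62 on the log2 scale. Without Akita-water replicate 4 the fold changes were 0.55, 0.13 and 1.05, and without WT-water replicate 1 they were 1.60, 2.58 and 2.25.

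In mice given MitoGamide, Akita exceeded WT by 3.13 (SE 1.00) for Fga, 2.66 (SE 1.28) for Fgb and 3.17 (SE 1.05) for Fgg on the log2 scale. Replicate 5 set these values. Without it they were 0.46, -1.49 and 0.33, and the direction of Fgb turned. Groups overlapped for each chain (12.4% of genes did not). On MitoQ the fold changes were 0.40 (SE 0.36), 1.37 (SE 0.82) and 1.17 (SE 0.45) with overlap for each chain (2.93% of genes did not), and they were -0.17, -0.25 and 0.54 without Akita-MitoQ replicate 4.

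**Figure D3:**
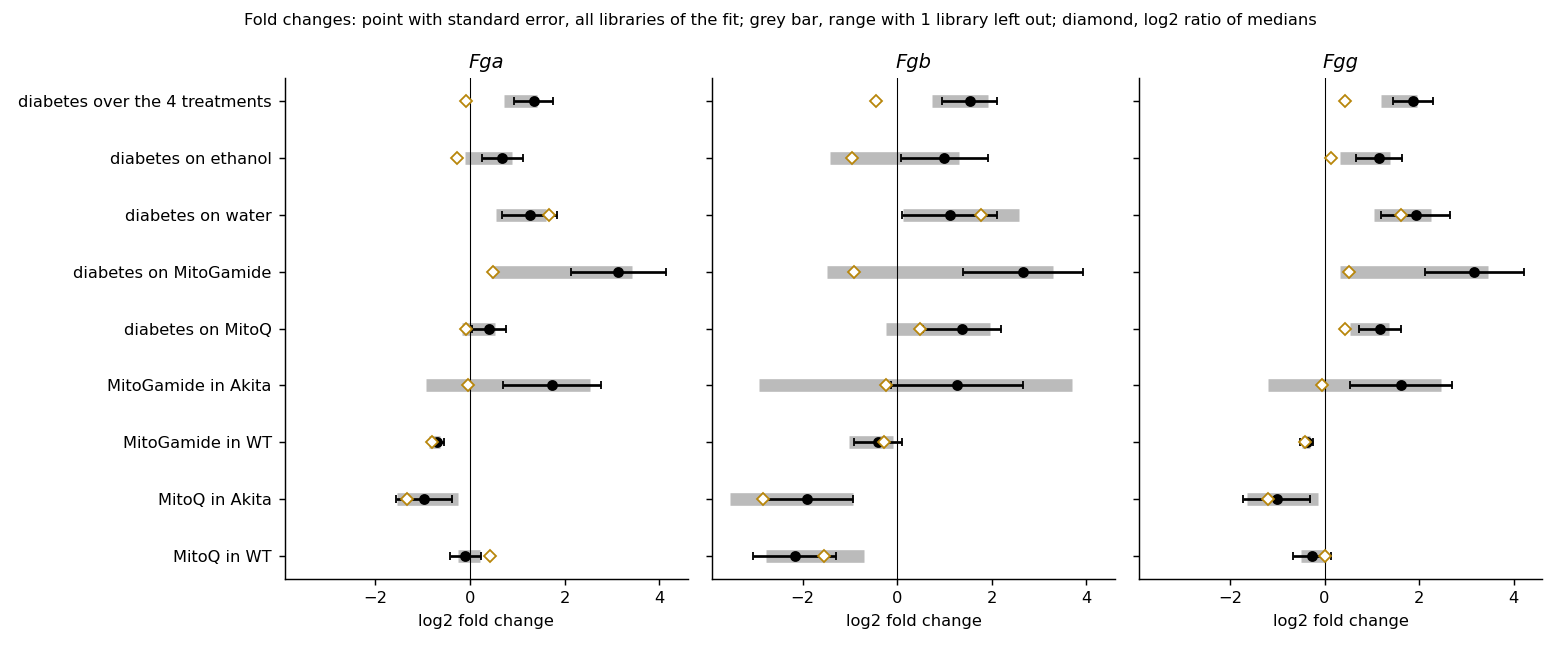
Log2 fold changes of the 3 chains in 9 comparisons, with the standard error (black), the range of the fits that each left out 1 library (grey bar) and the log2 ratio of the group medians (diamond). The grey bars cross 0 for every chain for MitoGamide in Akita mice, and for MitoGamide in WT mice they stay below 0.

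The comparison of drug with vehicle asked whether MitoGamide alters these transcripts. In Akita mice the log2 fold changes of MitoGamide against ethanol were 1.73 (SE 1.04) for Fga, 1.26 (SE 1.40) for Fgb and 1.62 (SE 1.08) for Fgg. The medians were nearly equal, 13.7 against 14.1 CPM for Fga, 0.577 against 0.683 for Fgb and 6.86 against 7.11 for Fgg. Groups overlapped for each chain (7.50% of genes did not). Without Akita-MitoGamide replicate 5 the fold changes were -0.92, -2.91 and -1.20, and without Akita-ethanol replicate 3 they were 2.54, 3.69 and 2.46. The sign of the difference thus rested on Akita-MitoGamide replicate 5.

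In WT mice Fga was lower on MitoGamide than on the ethanol vehicle. All 5 WT-MitoGamide libraries (8.50 to 15.0 CPM) lay below all 5 WT-ethanol libraries (16.0 to 18.4 CPM), with a log2 fold change of -0.69 (SE 0.13). Groups that did not overlap in either direction were found for 2.28% of genes, and in this direction for 1.04%. Leaving out any 1 library gave between -0.87 and -0.63. The WT-water libraries, without the drug, ranged from 9.39 to 30.1 CPM of Fga. Over all genes, 0 of 17395 were called for MitoGamide in WT mice at an adjusted p under 0.05 (edgeR). For Fgg the fold change was -0.37 (SE 0.14) with 3 of 5 libraries below the WT-ethanol range, and for Fgb it was -0.40 (SE 0.51). The value of Fgb rested on single libraries, since it was -1.03 without WT-MitoGamide replicate 5 and -0.082 without WT-ethanol replicate 2.

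MitoQ against water gave log2 fold changes of -0.98 (SE 0.59) for Fga, -1.91 (SE 0.97) for Fgb and -1.01 (SE 0.71) for Fgg in Akita mice. They were -0.26, -0.94 and -0.14 without Akita-water replicate 4, -1.55, -3.53 and -1.65 without Akita-MitoQ replicate 4, and remained below 0 in each fit that left out 1 library. In WT mice the values were -0.10 (SE 0.33), -2.17 (SE 0.88) and -0.27 (SE 0.41). Without WT-water replicate 1 they were 0.22, -0.71 and 0.03. Groups overlapped for each chain in both genotypes (0.308% of genes did not overlap in Akita and 0.962% in WT mice).

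Since liver is the main source of fibrinogen, 25 hepatocyte markers were read in the same libraries. WT-water replicate 1 held the highest value of the 40 libraries for 23 of 25 markers, and none of the 25 was at 0 there. Its level of Alb, which encodes albumin, was 292 CPM against 1.98 to 31.2 in the other libraries, and Apoa1 (the main apolipoprotein of high-density lipoprotein) and Ahsg (fetuin-A) reached 34.2 and 29.1 CPM. The liver markers therefore moved with the 16.3 CPM of Fgb and 30.1 CPM of Fga in this WT library. In Akita-MitoGamide replicate 5 the markers went both ways. Alb was 5.46 CPM, Apoa1 0.248 CPM and Ahsg at 0, and 20 of the 25 markers had a count, against 14, 21, 21 and 20 in replicates 1 to 4. Apob (apolipoprotein B), however, was 1892 CPM, its highest value of the 40 libraries, and Apoa2 was 4.38 CPM against 1.97 to 2.95 in the rest of the group.

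The remaining high Akita libraries did not all show the same mixture. Alb was 5.51 CPM in Akita-ethanol replicate 3, 3.23 in Akita-water replicate 4, 4.80 in Akita-water replicate 1 and 2.30 in Akita-MitoQ replicate 4. Ahsg was at 0 in the last 3 of these and 0.0706 CPM in Akita-ethanol replicate 3. Apoa2, in contrast, was the highest of its group in Akita-ethanol replicate 3 (2.82 CPM) and Akita-water replicate 4 (2.24 CPM), and Apob was too (1122 and 935 CPM). Apoa2 was not the highest of its group in Akita-MitoQ replicate 4 (1.78 CPM) or in Akita-water replicates 1 and 2 (1.92 and 0.913 CPM).

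The sum over all 25 markers was highest in Akita-MitoGamide replicate 5 (1964 CPM), followed by WT-water replicate 1 (1455 CPM). It was also the highest of its group in Akita-ethanol replicate 3 (1285 CPM) and Akita-water replicate 4 (1067 CPM), but not in Akita-MitoQ replicate 4 (721 CPM). Apob, at 191 to 1892 CPM, made up most of it in every library except WT-water replicate 1. This sum ranged from 905 to 1964 CPM in Akita-MitoGamide, 746 to 1285 in Akita-ethanol, 383 to 1067 in Akita-water and 547 to 949 in Akita-MitoQ. In WT mice it ranged from 621 to 816 on ethanol, 628 to 876 on MitoGamide, 285 to 1455 on water and 244 to 697 on MitoQ. Over the 23 markers other than Apob and Serpina1d, a choice made after the values were seen, the sum was 747 CPM in WT-water replicate 1, 52.0 in Akita-MitoGamide replicate 5 and between 33.2 and 117 in the remaining 38 libraries. The part of hepatocyte transcripts in the fibrinogen of the high Akita libraries was not tested.

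**Figure D4:**
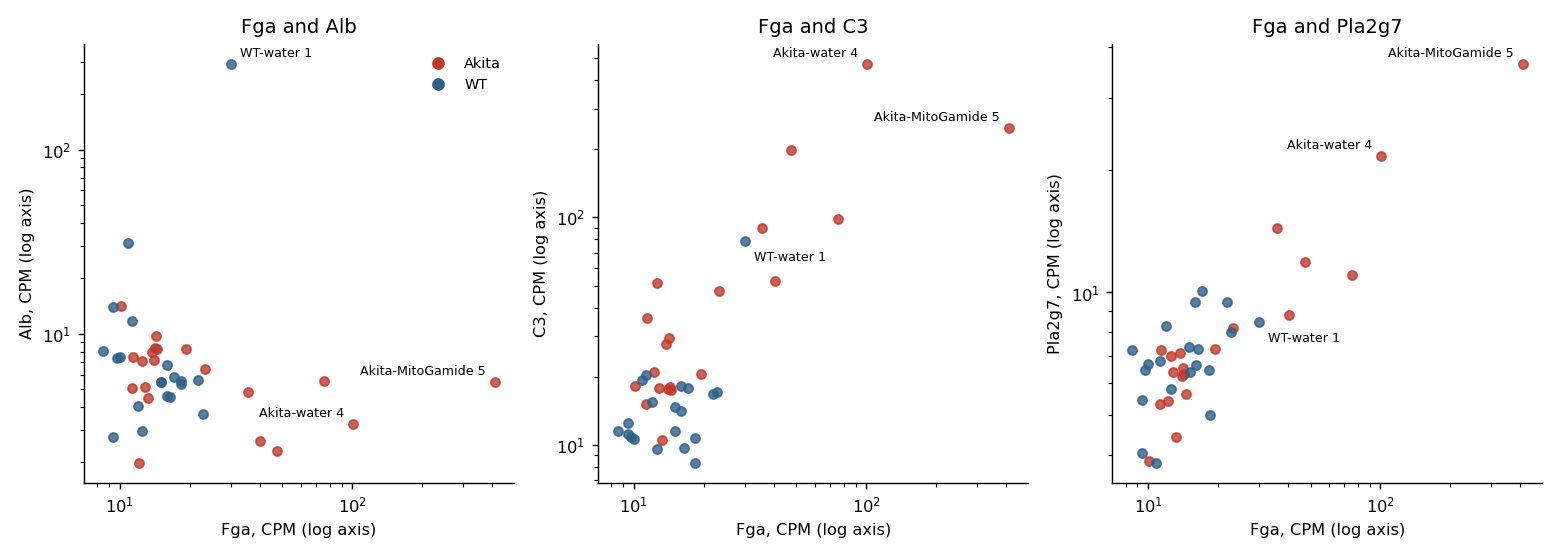
Fga against Alb, C3 and Pla2g7 in the 40 libraries (CPM, log axes, Akita in red and WT in blue). Alb is high in WT-water replicate 1 (292 CPM) and not in the Akita libraries with high Fga, whereas C3 and Pla2g7 are high in several of these. Alb does not stand for all 25 hepatocyte markers, whose sum is highest in Akita-MitoGamide replicate 5 (1964 CPM). Apob alone makes up 1892 CPM of that sum. The 23 markers other than Apob and Serpina1d sum to 52.0 CPM there and to 747 CPM in WT-water replicate 1. Pla2g7 was chosen for its correlation with the chains.

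Of 26 genes listed as acute phase products, 11 had their highest value of the 40 libraries in WT-water replicate 1, 5 in Akita-MitoGamide replicate 5 (Cp, Lbp, Serpina3g, Mt1 and Mt2) and 1 in Akita-water replicate 4 (C3). Of the 17769 genes, 4.58%, 15.7% and 0.872% peaked in these libraries, so that the 5 are near the share of all genes. C3, the central complement component, was high in the same libraries as the chains. It was 246 CPM in Akita-MitoGamide replicate 5 (15.1 to 51.7 in the rest of the group), 472 in Akita-water replicate 4, 199 in Akita-MitoQ replicate 4 (10.5 to 18.0 in the rest), 98.0 in Akita-ethanol replicate 3 and 78.7 in WT-water replicate 1. The highest C3 belonged to Akita-water replicate 4, whose Fga (101 CPM) was well below that of Akita-MitoGamide replicate 5 (410 CPM). Spp1 (osteopontin, a product of injured tubules) was also highest of its group in Akita-MitoGamide replicate 5 (1511 CPM), Akita-ethanol replicate 3 (933 CPM) and Akita-MitoQ replicate 4 (805 CPM), and in Akita-water it was 1013 and 934 CPM in replicates 1 and 4. Other tubular injury genes differed. Havcr1 (kidney injury molecule 1) rested on few counts. It was lowest of its group in Akita-MitoGamide replicate 5 (0.083 CPM), Akita-water replicate 4 (0.086) and Akita-MitoQ replicate 4 (0.115). Krt19, a keratin, was lowest of its group in Akita-ethanol replicate 3 (0.565 CPM) and Akita-MitoQ replicate 4 (0.690). In Akita-water replicate 4, Krt19 was the highest of its group (5.76 CPM).

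Of the 27 genes listed for IL-6 family signalling, 12 had their highest value of the 40 libraries in Akita-MitoGamide replicate 5, beside 15.7% of all genes, and 15 did not. The genes that follow were picked after their values were seen, and Cebpd and Mt1 come from other lists. Socs3, the feedback inhibitor of the pathway, was 16.8 CPM there and between 0.476 and 4.09 CPM in the other 39 libraries. In Akita-water replicate 4, Akita-ethanol replicate 3 and Akita-MitoQ replicate 4 it was 1.89, 3.11 and 1.38 CPM. Cebpd, a C/EBP factor of the acute phase, was 41.8 CPM in Akita-MitoGamide replicate 5 and 7.18, 4.59 and 4.60 CPM in those 3 libraries. Mt1 (metallothionein) was 179 CPM against 46.6, 54.2 and 46.1, and Stat3 was 125 CPM against 76.1, 82.6 and 74.9. Bcl3, by contrast, was 1.32 CPM in Akita-MitoGamide replicate 5 (0.721 to 2.47 in the rest of its group) and 1.08, 2.12 and 0.805 CPM in those 3 libraries. Il6 itself was not above 0.120 CPM in any library.

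The pathway around the chains was compared between the genotypes over the 4 treatments with edgeR's quasi-likelihood test, with Benjamini-Hochberg adjustment over 17769 genes. At an adjusted p under 0.05, 22.8% of these genes were called, 11.0% higher and 11.8% lower in Akita. Counts for the lists below are read beside these shares. Of 167 genes in 8 lists, 117 were tested and 55 called, 39 higher and 16 lower.

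Among clotting factors and their inhibitors, 22 of 28 genes were tested, 4 rose and 3 fell in Akita. F10, which encodes the factor that activates prothrombin, rose by 1.17 (SE 0.20, adjusted p = 2.97e-05) on the log2 scale, from 0.547 ± 0.310 to 1.21 ± 0.486 CPM (SD, n = 20 each). Kng2 (a kininogen, 0.39), Vwf (the platelet adhesion protein von Willebrand factor, 0.74) and Pros1 (protein S, 0.44) also rose. The call for Pros1 did not hold in 2 of 40 fits with a single library removed. F5, the cofactor of factor X, had a log2 fold change of -0.94 (SE 0.15, adjusted p = 8.37e-06) and fell from 14.3 ± 4.89 to 7.32 ± 3.04 CPM (SD, n = 20 each). Proc (the anticoagulant protein C, -0.61) and Ggcx (the vitamin K-dependent carboxylase, -0.35) fell too. The median over the 22 genes was -0.04, beside -0.02 over all genes tested.

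Of the genes of fibrinolysis, the breakdown of fibrin by plasmin, 11 of 14 were tested, 5 rose and 3 fell. Plaur, the urokinase receptor, rose by 0.50 (adjusted p = 0.00774), Serpine2 by 0.29, S100a10 (a plasminogen receptor subunit) by 0.56 and Thbs1 (thrombospondin 1) by 0.58. Plau (urokinase) had a log2 fold change of -0.43 and Serpinf2 (antiplasmin, the plasmin inhibitor) of -1.03 (SE 0.11), from 255 ± 44.7 CPM in WT to 125 ± 33.4 in Akita mice (SD, n = 20 each). Hrg, a plasma glycoprotein that binds plasminogen and fibrinogen, fell by 2.11 (SE 0.18, adjusted p = 5.76e-12). The list thus held activators, receptors and inhibitors that changed in both directions, with a median of 0.25.

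All 12 genes of the fibrinogen receptors were tested. Itgav (integrin αV, 0.38), Itga5 (integrin α5, 0.28), Icam1 (0.40) and the endothelial cadherin Cdh5 (0.28) rose on the log2 scale, while the leukocyte integrins Itgb2 (-0.42) and Itgax (-0.69) fell. Leukocyte markers moved alongside, since Ptprc, Adgre1 and Csf1r fell and Cd14 rose among 10 of 16 tested, and the call for Adgre1 was lost in 9 of 40 fits that left out 1 library. The leukocyte markers summed to between 41.3 and 64.3 CPM in Akita libraries and between 59.6 and 102 in WT libraries. Whether this bears on the integrins was not tested. Itgam, the partner of Itgb2 in the leukocyte fibrinogen receptor Mac-1, had a log2 fold change of 0.13 (SE 0.13, adjusted p = 0.549). The median over the 12 receptor genes was 0.07.

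Among 19 genes with a fibrinogen-like domain, 11 were tested, 4 rose and 1 fell. Fgl1 (the liver-secreted fibrinogen-like protein 1, 0.66), Tnc (the matrix protein tenascin C, 0.53) and Angptl2 (0.27) were among those that rose, and Angptl7 (-1.05) fell. The median of the 11 genes was 0.22.

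**Figure D5:**
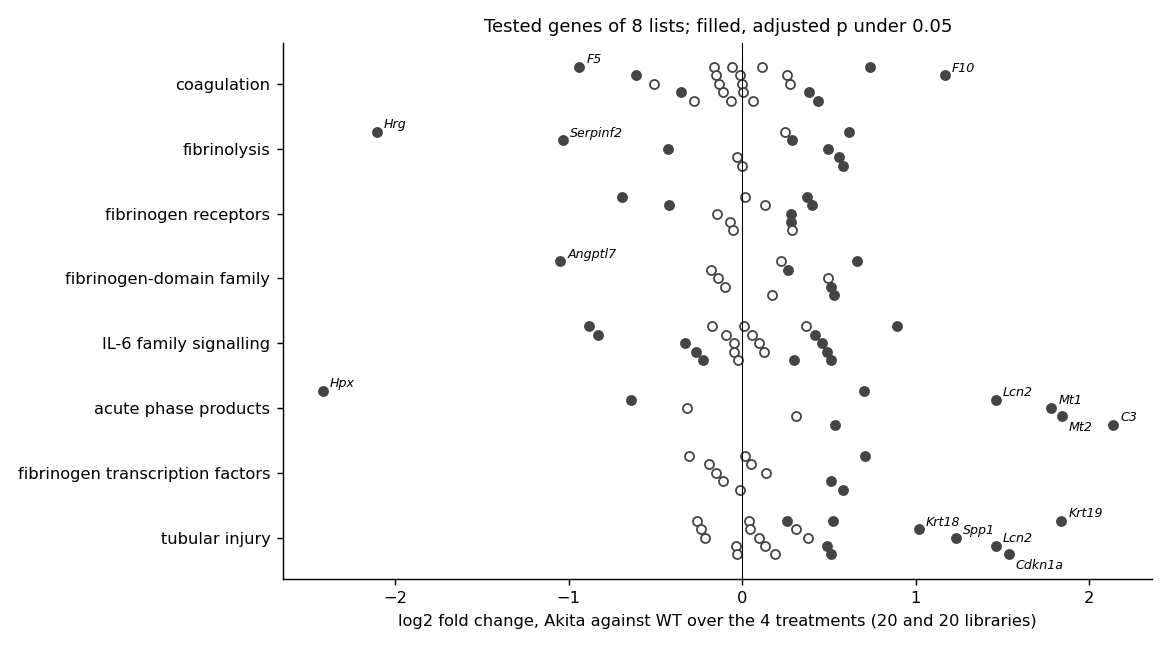
Log2 fold changes in Akita against WT over the 4 treatments for the tested genes of 8 lists, with filled points for an adjusted p under 0.05. Genes called in both directions appear in coagulation, fibrinolysis, receptors, the fibrinogen-domain family, IL-6 signalling and acute phase products, and tubular injury genes were called in 1 direction.

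Of the IL-6 family of ligands, receptors and signal proteins, 21 of 27 genes were tested, 6 rose and 5 fell. Stat3, which carries the signal to the fibrinogen promoters, rose by 0.51 (SE 0.07, adjusted p = 1.19e-07), from 48.6 ± 4.05 to 69.8 ± 15.6 CPM (SD, n = 20 each). Socs3 rose by 0.89 and Osmr, the oncostatin M receptor, by 0.42. Both calls held in all 40 fits that left out 1 library. Il6st, the shared receptor subunit gp130, fell by 0.27 and Bcl3, which acts with NF-κB, fell by 0.83. Clcf1, Cntfr and Il1r1 rose, and Il11ra1 and Il1b fell. The call for Clcf1 was lost in 18 of 40 fits. The median of the 21 genes was 0.01.

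Of 26 acute phase products only 10 passed the filter on low counts, 6 rose and 2 fell. C3 rose by 2.14 (SE 0.39, adjusted p = 5.07e-05), from 17.0 ± 15.0 CPM in WT to 75.3 ± 113 in Akita mice (SD, n = 20 each), and by 1.85 without Akita-MitoGamide replicate 5. Mt1 and Mt2, the metallothioneins, rose by 1.78 and 1.84, Lcn2 (neutrophil gelatinase-associated lipocalin) by 1.46, Cp (ceruloplasmin) by 0.70 and Lbp (lipopolysaccharide binding protein) by 0.53. The median of the 10 genes was 0.62. Cfb, complement factor B, fell by 0.64. Hpx (hemopexin) was called lower, but its WT mean was 1.36 ± 4.61 CPM (SD, n = 20) and it did not pass the filter without WT-water replicate 1. The same held for the hepatocyte markers Ahsg and Cps1. Of 17 hepatocyte markers tested, 1 rose (Apob) and 7 fell, among them Apoh (beta-2-glycoprotein I) by 2.51, a call that stood without WT-water replicate 1 (log2 fold change -2.40).

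Of the factors known to act on fibrinogen promoters, 11 of 15 were tested. Cebpb (0.58), Cebpd (0.71) and Stat3 rose and 0 fell, with a median of 0.02. The call for Cebpd was lost in 4 of 40 fits, and its Akita mean of 6.68 ± 8.36 CPM (SD, n = 20) contained the 41.8 CPM of Akita-MitoGamide replicate 5. Without that library its log2 fold change was 0.38 (adjusted p = 0.0284). Hnf4a, which maintains the hepatocyte and proximal tubule programmes, had a log2 fold change of -0.19 (SE 0.08, adjusted p = 0.0897).

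Of the tubular injury genes, 21 of 28 were tested, 9 rose and 0 fell, with a median of 0.26. Krt19 (a keratin of injured tubules) rose by 1.84, Cdkn1a (the cell cycle inhibitor p21) by 1.54, Lcn2 by 1.46, Spp1 by 1.23 and Krt18 by 1.02. Krt7, Krt8, Clu and Anxa1 rose by 0.26 to 0.52. The level of Spp1 was 295 ± 66.0 CPM in the WT and 700 ± 273 in the Akita libraries (SD, n = 20 each). It was at least 367 CPM in each Akita library and at most 426 in each WT library, so that the ranges overlapped only at their ends. Krt7, Krt8, Krt18 and Krt19 are also expressed in the collecting duct, and collecting duct markers rose alongside, Aqp2 (aquaporin 2) by 0.98 (adjusted p = 1.26e-07), Scnn1g (a sodium channel subunit) by 0.53 and Aqp3 by 0.33. Among the 15 markers of nephron segments other than the proximal tubule, 5 rose and 1 fell, with a median of 0.12, and their part in the keratins was not tested. Havcr1 (kidney injury molecule 1) was at most 1.42 CPM in any library. Proximal tubule markers were called lower for Slc34a1, Lrp2, Slc7a13 and Slc27a2 of 10 tested.

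For MitoGamide against ethanol in Akita mice, 1.26% of 17051 genes were called. Of the 116 list genes tested in this comparison 3 were called. Thbs1 rose by 0.50 (SE 0.09, adjusted p = 0.0348), Itgb1, the shared β1 integrin, by 0.40 (SE 0.08, adjusted p = 0.0438) and Cdh5 by 0.55 (SE 0.12, adjusted p = 0.0478). Cdh5 also belongs to the 11 endothelial and stromal markers, which moved alongside: they summed to between 410 and 573 CPM in Akita-MitoGamide and between 308 and 394 CPM in Akita-ethanol, without overlap. Of these markers 1, Cdh5 itself, was called, and the median of the 11 was 0.55. Their part in the 3 calls was not tested. These calls were not stable, since 0 list genes were called without any 1 of the Akita-ethanol libraries or without Akita-MitoGamide replicate 2 or 4, 2 without replicate 1 or 3 and 6 without replicate 5. DESeq2 called 11. The medians of the 8 lists lay between 0.04 for the promoter factors and 0.62 for the acute phase products, beside -0.0021 over all genes tested.

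The genes on either side of the cluster differed from each other. Plrg1, a splicing factor that begins beyond Fgb at chr3:83055522-83072355, lay between 7.14 and 20.6 CPM in the 40 libraries and was 20.4 in Akita-MitoGamide replicate 5 (15.2 to 18.3 in the rest of its group). Lrat, which esterifies retinol, at chr3:82892579-82903973, lay between 1.38 and 7.03 CPM, and was highest of its group in several libraries with high fibrinogen. It was 7.03 CPM in Akita-MitoGamide replicate 5 (2.31 to 4.32 in the rest of the group), 6.50 in Akita-ethanol replicate 3 (1.78 to 3.34), 5.77 and 5.59 in Akita-water replicates 1 and 4 (2.24 to 4.05) and 4.89 in Akita-MitoQ replicate 4 (3.86 to 4.33). WT-MitoGamide replicate 1, without high fibrinogen, held 5.78 CPM of Lrat, and the folds of Lrat between libraries were far smaller than those of the chains. The long non-coding RNA Gm30097 (chr3:82926665-83008488, minus strand) overlaps the first part of Fgg on the opposite strand and lay between 0.274 and 2.23 CPM. Its highest value, from 27 counts, was in Akita-MitoGamide replicate 5 (0.491 to 0.755 CPM in the rest of the group). It was also highest of its group in Akita-ethanol replicate 3 (1.69 CPM), but not in Akita-water replicate 4 (1.89) or Akita-MitoQ replicate 4 (1.32). Whether strand was used in counting is not stated, so reads of this overlap cannot be assigned.

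Among 17769 genes, those most like the chains by the mean of their 3 Spearman correlations over the 40 libraries were Pla2g7 (0.66), Rnase4 (0.64), Tmem37 (0.60), Phgdh (0.60), Rarres2 (0.59) and Lnx2 (0.58). Pla2g7 encodes the lipoprotein-associated phospholipase that inactivates platelet-activating factor, Phgdh the first enzyme of serine synthesis and Rarres2 the secreted protein chemerin. Pla2g7 was 36.3 CPM in Akita-MitoGamide replicate 5 (5.34 to 7.27 in the rest of the group), 21.5 in Akita-water replicate 4 and 11.8 in Akita-MitoQ replicate 4. Rarres2 was 96.0 CPM in Akita-MitoGamide replicate 5, 121 in Akita-ethanol replicate 3, 98.1 in Akita-water replicate 1 and 60.3 in Akita-MitoQ replicate 4, but also 74.0 in WT-MitoGamide replicate 5 and 60.6 in WT-ethanol replicate 2. Those WT libraries had 3.14 and 3.42 CPM of Fgb, above the rest of their groups.

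Phgdh shared this feature, with 16.1 and 15.6 CPM in these 2 WT libraries and 16.8 CPM in Akita-MitoGamide replicate 5. Pla2g7 also ranked first by Pearson correlation (0.86), without Akita-MitoGamide replicate 5 (0.63) and on deviations from the group means (0.80), and ranked 3 in the 20 Akita libraries alone (0.75). The other 5 genes fell to between place 14 and 186 when group means were subtracted.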

How the data were processed

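Kidney cortex RNA of 40 mice, depleted of ribosomal RNA, was sequenced by the authors as single reads of directional libraries. Per the labels and the study's methods, the authors used Skewer to trim reads at Phred 20 and kallisto 0.46.1 to assign them to mouse transcripts of GENCODE v25, which were then summed by gene. What was deposited is a table of estimated counts that are whole numbers without filter or scaling. A read that fits several transcripts is shared out between them. Library totals ranged from 9106654 to 24321424.

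Positions and lengths were taken from GENCODE release 21, which held 99.5% of the identifiers in the table. Promoters came from RefSeq (GRCm38.p6), which held 3 of the 3 genes. Counts were normalized by TMM. Fold changes and tests of other genes came from edgeR 4.0.16 (quasi-likelihood test, R 4.3.3) for genes that averaged 10 counts or more, on the 10 libraries of each contrast, or on all 40 with treatment and genotype as additive terms. The threshold was an adjusted p (Benjamini-Hochberg) under 0.05, and standard errors were the size of the fold change over the square root of F. Log2 CPM used a pseudocount of 1. Each mouse is 1 replicate, and the main fits did not pair samples by replicate number.

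The members and the 16 gene lists were chosen with earlier results of these data known. The members' own contrasts were part of that choice and were not tested. Named genes were, per list, the 2 with the smallest p in each of both tests and the 2 with the highest level, the 6 genes most correlated with the chains and the flanking genes. Further list genes are named because they were called or were high in single libraries, which was decided after their values were seen. A few genes of these lists enter the counts but are not reported here by name. Alternatives were RLE normalization, no filter, DESeq2 1.42.0, a replicate block, 1 fit of all 40 libraries and each library left out. On simulated counts for MitoGamide in Akita (16862 genes), 86% of genes changed by 1 and 100% of those changed by 2 on the log2 scale were recovered. Changes were planted only in genes with higher counts, and no simulated library stood apart as Akita-MitoGamide replicate 5 does. These shares therefore check the method and do not give the power of the real comparison.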

Additional observations from a re-analysis of the deposited data

Results flagged for a closer look

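In 16 groups of 5 libraries (C3 and Alb in each of the 8 groups), Dixon's test at the 95% level marked 7 single libraries as far from the other 4 of their group. The test was run on CPM without a log transform. The rate of about 1 in 20 groups marked by chance holds only for normally distributed values. Whether CPM were so distributed was not tested, so the 7 are not read against this rate. C3 and Alb were chosen with earlier results of these data known, so the count is a description. The chains were not tested in this way, because they were chosen for such libraries.

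C3 was marked in Akita-MitoGamide replicate 5 (246 CPM, others 15.1 to 51.7), Akita-MitoQ replicate 4 (199 CPM, others 10.5 to 18.0) and Akita-water replicate 4 (472 CPM, others 18.2 to 89.9). Among WT mice, C3 was marked in WT-water replicate 1 (78.7 CPM, others 12.5 to 20.3) and in WT-MitoGamide replicate 5 (14.6 CPM, others 10.6 to 11.6), the latter at a level far below those of the Akita libraries. All 5 libraries also held the most Fga of their groups.

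Alb was marked in WT-water replicate 1 (292 CPM, others 2.73 to 31.2) and in Akita-water replicate 3 (14.2 CPM, others 1.98 to 4.80), which held 10.1 CPM of Fga, the lowest of its group.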

How the results depend on the processing

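The fold changes of the chains depended on single libraries more than on the method. Over the fits that each left out 1 library, Fga ranged from -0.10 to 0.89 and Fgb from -1.42 to 1.31 for diabetes on ethanol. For diabetes on MitoGamide the ranges were 0.46 to 3.42 (Fga), -1.49 to 3.30 (Fgb) and 0.33 to 3.46 (Fgg), and for diabetes on MitoQ Fgb ranged from -0.25 to 1.97. For MitoGamide in Akita they were -0.92 to 2.54 (Fga), -2.91 to 3.69 (Fgb) and -1.20 to 2.46 (Fgg). Fgb ranged from -1.03 to -0.082 for MitoGamide in WT, from -3.53 to -0.94 for MitoQ in Akita and from -2.77 to -0.71 for MitoQ in WT. Of the values under RLE normalization, no filter, DESeq2, 1 fit of all 40 libraries and the replicate block, 3 moved by more than 1 SD between replicates, all for diabetes on MitoGamide under the replicate block (Fga 1.38, Fgb 0.84, Fgg 1.34). The main fits did not pair samples by replicate number. Between 0 and 3 of 5 same-numbered pairs per contrast had correlated deviations above 0.1. These correlations ranged from -0.53 (diabetes on water) to 0.74 (MitoQ in Akita). Whether same-numbered libraries shared a batch cannot be told from them. For MitoGamide in Akita, the 3 list genes called became 11 with DESeq2, 0 under the replicate block and 0 to 6 with 1 library left out, and the count over all genes, 214, became 1069 with DESeq2 and 0 under the block. The 55 list genes called between genotypes stayed between 53 and 59 throughout. Levels of Fgb below 1 CPM rest on few counts, so small differences there were not detectable at this depth.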
